A study of Mus musculus with 2 samples.

Results

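The transcripts described here lie far from annotated promoters: segments of nascent RNA that the deposited annotation places between genes, at least 10 kb from the nearest transcription start site (TSS), and whose detailed annotation names no repeat element. They numbered 1210 of 43122 called transcripts in the control library (2.81%, 95% Wilson interval 2.65 to 2.97%) and 1404 of 51365 in the IL-4 library (2.73%, 2.60 to 2.88%), together 2614 of 94487. They were chosen by position and annotation, not by score. The libraries came from global run-on sequencing (GRO-seq), in which engaged RNA polymerases in isolated nuclei extend their transcripts with a labelled nucleotide, so that RNA in the process of being made is sequenced. Both were made from wild-type mouse bone marrow-derived macrophages (BMDMs) from animals aged 8 to 12 weeks, grown for 6 days in L929 cell supernatant, a source of the macrophage growth factor M-CSF. One condition was left untreated (control), and for the other the cytokine interleukin-4 (IL-4) was added at 20 ng/ml for 1 hr. Run-on reactions were done in duplicate and pooled into 1 library per condition, so no value below has a replicate (n = 1), no test between conditions was possible, and the number of animals behind each library is not given in the sources used here.

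Enhancers are regulatory DNA elements bound by transcription factors, and active ones are themselves transcribed by RNA polymerase II, typically in both directions from a narrow core, into short and unstable enhancer RNAs (eRNAs) that run-on methods detect well. In macrophages, PU.1, C/EBP, AP-1 and RUNX factors mark such elements, and IL-4 acts on them through the transcription factor STAT6. RNA between genes has other sources too: polymerases run past the 3' end of a gene before they stop, and long or alternative forms of genes can be missing from an annotation. For this reason the transcripts were set against a second gene annotation, GENCODE M21, before their values were compared.

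The libraries carried the markers of the labelled cell type. All 10 macrophage marker genes had called transcripts in both libraries, with summed highest scores of 24.0 in control and 23.1 after IL-4. Of 7 neutrophil markers 3 were detected in each library (summed scores 1.9 and 1.1), of 7 T cell markers 2 and 1, of 5 B cell markers 1 and 1, of 5 dendritic cell markers 1 and 1, of 4 erythroid markers 0 and 1, and of 5 fibroblast markers 0 and 0. The summed scores were 1.0 and 0.8 for T cell markers, 0.4 and 0.1 for B cell markers and 0.2 and 0.3 for dendritic cell markers. Among T cell markers Cd8a had 4 transcripts in each library, with highest scores of 0.6 and 0.8, and Cd3d had 0.4 in control. The dendritic cell marker Batf3 had 1 transcript in control and 13 after IL-4. No called transcript carried the name of Cd3e, Flt3 or Col1a1. The score is the only measurement in the files, given to 1 decimal, and sequencing depth is unknown. The control library had fewer, shorter and higher-scoring transcripts than the IL-4 library, and the distal intergenic transcripts shared this: their median lengths were 234 and 334 bp (control first, then IL-4), against 226 and 311 bp for all other transcripts, and 56.4% and 73.4% of them had a score of at most 0.2. The part of this library difference in the results below was not tested.

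To show what kind of DNA is concerned, 5 stretches of 300 bases that these transcripts overlapped are printed here. They are promoter windows of predicted noncoding genes in RefSeq (build GRCm38.p6), read 5' to 3' on the strand of that gene, and were chosen, after their values were seen, as examples among the windows overlapped by a transcript free of any GENCODE gene. The first lies under the diverging pair near Ccr1 described below and was transcribed in both libraries. Those near Etv3 (Gm40085, in small part) and E230029C05Rik (Gm32164) were overlapped by a member after IL-4 alone. Those near Zfp217 (Gm34403) and 1700001O22Rik (Gm39783) were overlapped in both. Capitals mark a match to the C/EBP motif letters, the only match to any of the 5 motifs searched in these stretches.
Gm51701, chr9:123924898-123925197, plus strand: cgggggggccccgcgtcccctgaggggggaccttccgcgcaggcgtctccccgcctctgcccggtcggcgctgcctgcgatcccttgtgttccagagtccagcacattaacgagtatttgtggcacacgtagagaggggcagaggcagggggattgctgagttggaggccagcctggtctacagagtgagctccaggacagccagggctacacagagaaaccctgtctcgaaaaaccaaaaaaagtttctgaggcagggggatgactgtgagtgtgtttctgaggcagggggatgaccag
Gm40085, chr3:87512594-87512893, minus strand: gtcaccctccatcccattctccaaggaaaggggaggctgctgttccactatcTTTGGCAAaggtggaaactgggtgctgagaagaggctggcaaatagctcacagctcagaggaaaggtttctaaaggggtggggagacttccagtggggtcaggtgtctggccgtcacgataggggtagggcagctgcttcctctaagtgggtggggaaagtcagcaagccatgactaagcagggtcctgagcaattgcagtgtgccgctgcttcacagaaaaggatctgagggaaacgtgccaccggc
Gm32164, chr7:90060413-90060712, minus strand: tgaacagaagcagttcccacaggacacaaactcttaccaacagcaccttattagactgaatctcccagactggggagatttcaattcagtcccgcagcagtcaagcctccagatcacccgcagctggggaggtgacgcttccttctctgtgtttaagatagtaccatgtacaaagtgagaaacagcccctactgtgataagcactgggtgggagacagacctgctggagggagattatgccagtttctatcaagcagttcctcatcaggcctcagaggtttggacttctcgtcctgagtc
Gm34403, chr2:170184718-170185017, minus strand: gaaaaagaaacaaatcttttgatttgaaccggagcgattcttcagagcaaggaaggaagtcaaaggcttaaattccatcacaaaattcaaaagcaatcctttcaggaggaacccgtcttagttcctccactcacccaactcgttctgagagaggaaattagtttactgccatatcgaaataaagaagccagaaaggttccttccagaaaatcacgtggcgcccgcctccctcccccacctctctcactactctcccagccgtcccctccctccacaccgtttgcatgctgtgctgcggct
Gm39783, chr2:30771997-30772296, plus strand: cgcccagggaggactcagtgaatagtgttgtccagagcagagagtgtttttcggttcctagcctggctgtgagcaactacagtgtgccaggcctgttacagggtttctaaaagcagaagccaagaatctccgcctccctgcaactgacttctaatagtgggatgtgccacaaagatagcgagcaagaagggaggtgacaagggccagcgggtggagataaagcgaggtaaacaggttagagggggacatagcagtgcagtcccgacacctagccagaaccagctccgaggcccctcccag

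The Ccr1 stretch is 61.3% G or C and holds 14 CG dinucleotides, while the E230029C05Rik stretch is 50.3% G or C and holds 4. The plus-strand transcript near Ccr1 covered the whole first stretch in control with a score of 0.6 and 253 of its bases after IL-4 with a score of 0.5. The stretch near E230029C05Rik lay entirely within a 709 bp transcript of score 0.2 in the IL-4 library and had no control transcript. That transcript, like those over the Zfp217 stretch, was on the plus strand, so the printed letters are the complement of the RNA read backwards. The Etv3 transcript covered only the last 25 bases of its stretch. The match there, TTTGGCAA at bases 53 to 60, lies outside that transcript and is on the opposite strand to the printed one.

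The first question was where these transcripts lie in a newer gene annotation, and most of them were inside a gene or close behind one. Of the control transcripts, 425 (35.1%, interval 32.5 to 37.9%) lay on the same strand inside a GENCODE protein-coding gene, and 468 (33.3%, 30.9 to 35.8%) did so after IL-4. A further 153 (12.6%) and 171 (12.2%) lay inside another kind of gene, of which 103 and 102 were lincRNAs. Within 10 kb downstream of the 3' end of a gene on the same strand were 343 (28.3%, 25.9 to 31.0%) and 462 (32.9%, 30.5 to 35.4%). Inside or just downstream of a gene on their own strand were thus 921 (76.1%) and 1101 (78.4%) in all. The remainder began within 1 kb of a GENCODE gene start (38 and 43), lay opposite to a gene (31 and 34), or were free of genes by all these measures (220, 18.2%, 16.1 to 20.5%, and 226, 16.1%, 14.3 to 18.1%). Enhancers can also lie within genes and in their flanks, and whether any of these transcripts came from one was not tested. They are called distal intergenic transcripts below.

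**Figure D1:**
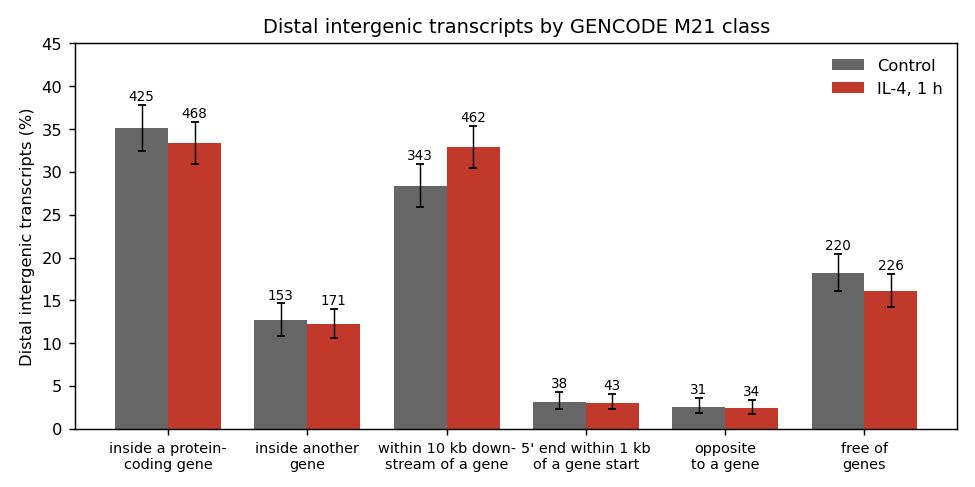
Share of distal intergenic transcripts (y axis, percent) in each of 6 exclusive GENCODE M21 classes (x axis) in the control (grey) and IL-4 (red) libraries, with the number of transcripts above each bar and 95% Wilson intervals as error bars, which cover the counting of transcripts within 1 library only. The bars for genes and their downstream flanks hold most transcripts, and the gene-free bars stand at 18.2% in control and 16.1% after IL-4.

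The gene-free transcripts resembled the rest in size and score. Their median lengths were 226.5 bp (control) and 321 bp (IL-4), and their median score was 0.2 in both libraries. CpG islands held 36 of the 220 and 32 of the 226, against 73 of 921 and 83 of 1101 of those inside or downstream of a gene. Over all distal intergenic transcripts 136 in each library lay in a CpG island (11.2% and 9.69%), more than the 4.24% and 4.17% of all called transcripts. Such islands are stretches rich in CG dinucleotides that usually mark promoters, and 20 of 38 and 18 of 43 transcripts at a GENCODE gene start lay in one. Chromosome 11 carried the most members, 125 (10.3%) in control and 167 (11.9%) after IL-4, against 9.11% and 9.49% of all transcripts, but 45 and 54 of these lay inside the single gene Rnf213.

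The gene name in the file, that of the nearest promoter, was often not the gene in which a transcript lay. For transcripts inside a protein-coding gene the names were the same in 46.4% of control and 49.1% of IL-4 cases, and for those downstream of a gene in 43.4% and 47.4%. The densest case was Rnf213 (chr11:119393100-119487418, plus strand), a large ubiquitin ligase gene. It held 99 of the transcripts, 45 in control and 54 after IL-4, all on its own strand and all named for Endov or Mir1932. No transcript of another annotation class was called inside Rnf213 in either library, so in these files its nascent transcription appeared as intergenic only. The summed signal of its members, that is, score times length added over transcripts, came to 5958.8 for the control library and 11287.2 for the IL-4 library. On the centred log2 scale this was 0.81. For transcripts and loci, 0 on this scale is the median locus of the genome (0.11 before centring), and for gene bodies it is the median gene (0.12 before centring).

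Other genes with many members moved in different directions. Foxn3, a forkhead transcription factor gene, held 8 members in control and 27 after IL-4, with sums of 383.1 and 2925.5 (centred log2 2.83). Jmjd1c, which encodes a histone demethylase family protein, held 2 and 10, with sums of 110.6 and 1381.6 (3.54). In the opposite direction, Tmcc3 held 20 in control and 8 after IL-4, with sums of 1581.5 and 436.3 (-1.97). Inside Lncpint, a long noncoding RNA gene, the sums were 1967.3 and 1000.7 (-1.08, 26 and 17 members). Rreb1, a zinc finger transcription factor gene, held 17 and 18 members and differed little, at 4265.5 and 4207.5 (-0.13). The rest of the body of Foxn3 and Jmjd1c, as its own exonic, intronic and promoter transcripts, was also higher (0.91 and 1.84), and that of Tmcc3 was lower (-0.77).

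The highest scores did not come from typical members. A 235 bp minus-strand transcript in a CpG island near Rpp21 (chr17:36231252-36231486 in control) scored 1014.3 in control and 741.3 after IL-4, and alone made up 69.2% and 54.9% of the summed signal of all members. A 42 bp control transcript near Fthl17 on chromosome X scored 20.1, and its 46 bp IL-4 counterpart scored 27.2. Near Ifngr2 (chr16:91534587-91534705) the scores were 19.9 and 13.1. Inside Neat1, a nuclear noncoding RNA gene, the transcript at chr19:5827850-5828257 scored 11.5 in control, and its counterpart scored 4.3 after IL-4. A second Neat1 transcript (chr19:5824906-5826073) scored 7.1 after IL-4. The others among the 5 highest of each library lay over noncoding genes. These were 6.1 after IL-4 inside Gm36264 (3.3 in control) and 4.7 in control over the ribosomal RNA copy n-R5-8s1 (3.8 after IL-4). Inside protein-coding genes scores reached 4.1 in control (BC005537) and 3.0 after IL-4 (Rbms1). Only 57 members in control and 31 after IL-4 had a score of at least 1.

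The next comparison asked how many of the transcripts were found again in the other library. In control, 586 of the 1210 (48.4%, 45.6 to 51.2%) had no transcript overlapping them on the same strand in the IL-4 library, against a background of 37.4% for all called transcripts. After IL-4, 784 of the 1404 (55.8%, 53.2 to 58.4%) had none in control, against a background of 48.1%. The share was lower at higher scores, although not at every step. At a score of 0.1 it was 74.0% and 76.2%, against 65.2% and 75.2% of all transcripts of that score. At a score of at least 0.3 it was 29.6% and 20.9%, against 22.5% and 19.7%. At a score of at least 1, 1 of 57 control members and 2 of 31 IL-4 members had no counterpart. From a score of 0.4 to 0.5 it went from 29.3% to 31.5% in control and from 14.5% to 27.3% after IL-4, over 33 to 92 members each. Compared at equal scores from 0.1 to 0.5, control members lay above all transcripts at each. IL-4 members lay above them at 0.1, 0.2, 0.3 and 0.5, by as little as 76.2% against 75.2% at 0.1 and 31.0% against 30.6% at 0.3, and below them at 0.4 (14.5% against 20.1%).

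**Figure D2:**
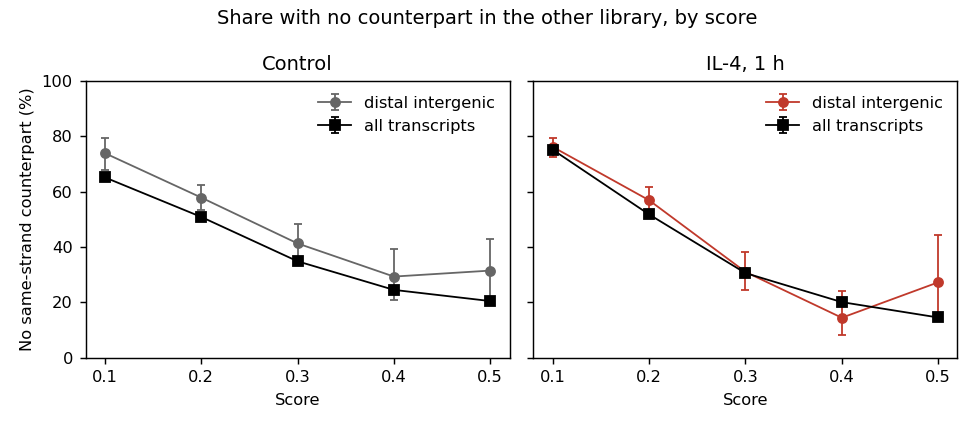
Percent of transcripts with no same-strand counterpart in the other library (y axis) at each score from 0.1 to 0.5 (x axis), for distal intergenic transcripts (circles, with 95% Wilson intervals) and all called transcripts (squares), in control (left) and after IL-4 (right). The share falls from 74.0% in control and 76.2% after IL-4 at a score of 0.1 to 41.3% and 31.0% at 0.3.

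Transcripts downstream of genes were the least often found again. Of these, 56.0% in control and 67.7% after IL-4 had no counterpart, against 42.1% and 48.5% of those inside protein-coding genes. Of the gene-free transcripts 54.1% (47.5 to 60.5%) and 53.1% (46.6 to 59.5%) had none. The nearest-promoter genes numbered 642 in control and 674 after IL-4, of which 396 were shared. Of them 436 in control and 405 after IL-4 had a single member. For comparison, of 10683 genes with transcripts that are not intergenic, 8573 had a value in both libraries.

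Enhancer cores are known to give rise to RNA in both directions, so opposite-strand partners were counted next. Within 500 bp of each other's 5' ends, 53 pairs were found in control, holding 101 members (8.35%), and 63 pairs after IL-4, holding 119 members (8.48%). Pairs were not counted over all called transcripts, so whether members pair more often than other transcripts is not known. In 36 and 45 of the member pairs the partners pointed away from each other (diverging order), and these held 72 (5.95%) and 90 (6.41%) members. Gene-free members in a diverging pair numbered 29 of 220 in control (13.2%, 9.34 to 18.3%) and 29 of 226 after IL-4 (12.8%, 9.08 to 17.8%). Over the other classes pooled the shares were 4.34% and 5.18%. The pooled members include the 38 and 43 at a GENCODE gene start. Some of these were also partners in diverging pairs, as near Utp3, Msl2 and Elf2. Their own share was not counted, so the higher share is not shown to be particular to gene-free members. This difference was not tested. The median gap between diverging 5' ends was 177 bp in the control library and 143 bp in the IL-4 library. Partners had to be called in the same library, so a weak second strand below the calling limit counted as missing.

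The same diverging pair was present in both libraries at 16 places, which is 44.4% of the control pairs and 35.6% of the IL-4 pairs. Both partners were gene-free at 5 of them, near Ccr1, Rbx1, Ptma, Arid1a and Azin1. The strongest was near Ccr1, a chemokine receptor gene, at 43.6 kb from its promoter. In control its minus-strand transcript (chr9:123924568-123924814) scored 0.8 and its plus-strand transcript (chr9:123924876-123925289) scored 0.6, with 62 bp between their 5' ends. After IL-4 the minus-strand transcript (chr9:123924418-123924873) scored 0.6 and the plus-strand transcript (chr9:123924945-123925278) scored 0.5, with a gap of 72 bp. Near Rbx1 the scores were 0.7 and 0.4 in control and 0.4 and 0.3 after IL-4, minus strand first. Near Ptma they were 0.3 and 0.4 in control and 0.4 and 0.6 after IL-4, the only one of the 5 in which both strands scored higher after IL-4. Near Azin1 the minus strand went from 0.2 to 0.3 and the plus strand from 0.6 to 0.3.

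The pair near Zfp541 that met the distance limit in control alone, with partners inside Bicra and at a gene start, scored 0.6 on each strand with a gap of 498 bp. A diverging pair in both libraries also lay near Spi1, which encodes PU.1 and is named Sfpi1 in the files. Its control partners scored 0.3 on the minus strand (chr2:91082790-91083004) and 0.8 on the plus strand (chr2:91083465-91083743), and its IL-4 partners scored 0.3 and 0.4. In all, 5 members in control and 4 after IL-4 had Spi1 as the nearest gene, at 10.5 to 13.2 kb from its promoter. The GENCODE gene is longer than the one in the file and reaches over them, so that the plus-strand members counted as inside Spi1. Their 5' ends lay 756 to 3704 bp from a GENCODE start of Spi1, and the minus partner of the pair counted as being at a gene start.

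**Figure D3:**
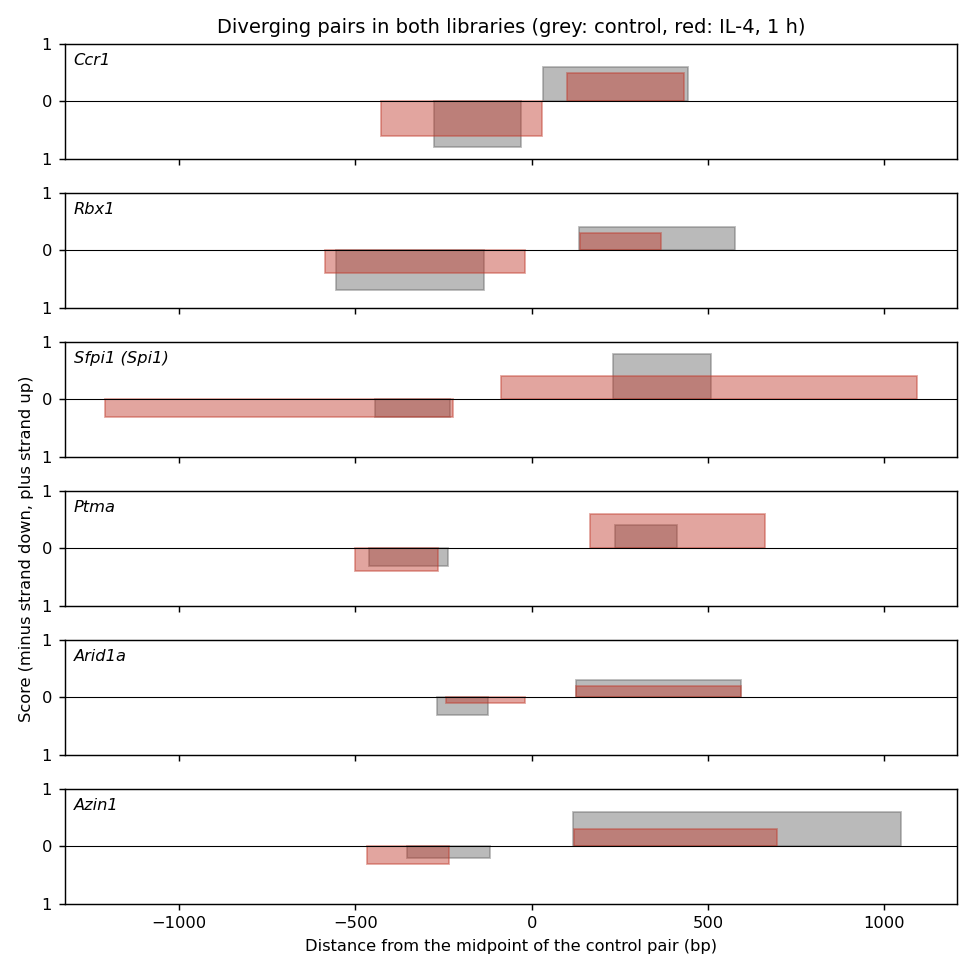
Diverging pairs present in both libraries at 6 places. Boxes span each transcript along the x axis, as distance in bp from the midpoint of the control pair, and their height is the score (y axis), with plus-strand transcripts drawn upward and minus-strand transcripts downward, control in grey and IL-4 in red. The minus-strand Ccr1 boxes reach 0.8 in grey and 0.6 in red, and the Spi1 plus-strand box is lower and longer after IL-4.

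To compare levels, transcripts of both libraries on either strand were joined into loci where they lay within 1000 bp, and the sums of score times length were set against each other. Other called transcripts, repeats included, were joined in as well and count in a locus sum. The 1453 loci with at least 1 distal intergenic transcript included 675 with a sum in both libraries, and their median centred log2 ratio was 0.09. Of these 675, 143 (21.2%) were at least 2-fold higher after IL-4, against a background of 18.8% over all 19637 loci with both sums, and 128 (18.96%) were at least 2-fold lower, against 17.7%. Both shares lay near the background. Over members alone, 466 loci had a sum in both libraries, of which 89 (19.1%) were higher and 88 (18.9%) lower. Past 2-fold over the whole range that rounding of the scores allows were 84 (12.4%, background 9.53%) and 60 (8.89%, background 8.29%). A further 364 loci (25.1%, background 22.9%) had transcripts in control alone, and 413 (28.4%, background 28.5%) after IL-4 alone.

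A smaller share of the gene-free loci was higher than of loci downstream of a gene or inside a protein-coding gene. Of 111 with both sums, 15 (13.5%) were at least 2-fold higher and 20 (18.02%) at least 2-fold lower. Of 206 loci downstream of a gene, 52 (25.2%) were higher and 42 (20.4%) lower, and of 237 inside a protein-coding gene 55 (23.2%) were higher and 44 (18.6%) lower. Among all 272 gene-free loci 83 (30.5%, 25.3 to 36.2%) were in control alone and 78 (28.7%, 23.6 to 34.3%) after IL-4 alone. Of 12 loci at a GENCODE gene start 0 were higher and 2 lower. Over all loci of the genome 18.8% were higher and 17.7% lower. Sums of loci beside genes can include joined transcripts that are not intergenic. Over the 553 member loci of intergenic transcripts alone, gene-free ones included, 18.1% were higher and 19.2% lower. These differences between kinds of locus were not tested.

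**Figure D4:**
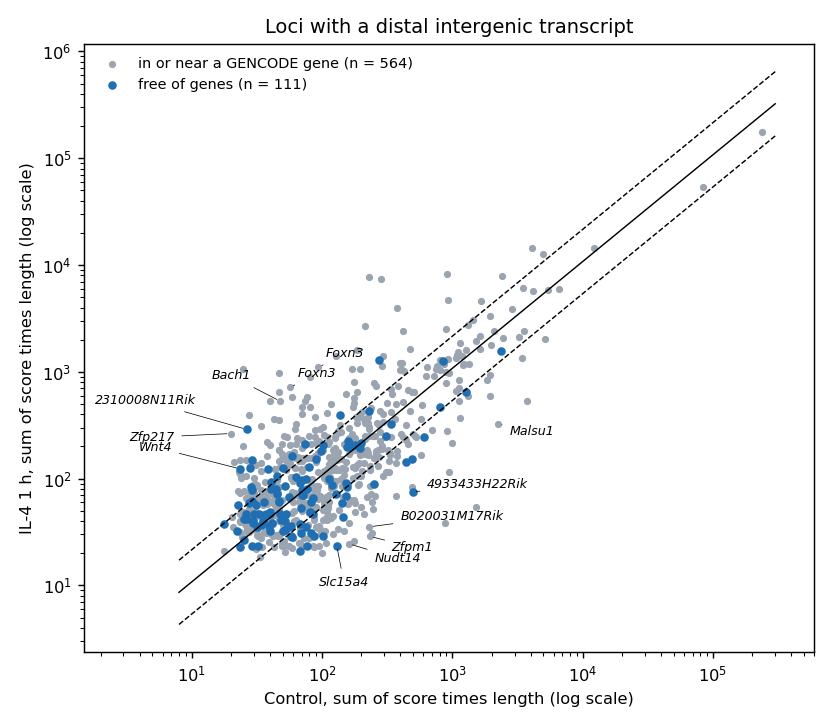
Sum of score times length in control (x axis) and after IL-4 (y axis), both on log scales, for the 675 loci with a distal intergenic transcript and a sum in both libraries, with the 111 gene-free loci in blue. The solid line is the median ratio of all loci and the dashed lines are 2-fold above and below it. Names mark large changes among loci of intergenic transcripts alone and among gene-free loci, from Zfp217 at 19.9 and 264.3 to Malsu1 at 2255.1 and 324.8.

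Large increases at loci of intergenic transcripts alone lay beside or inside genes, as did most members (76.1% in control and 78.4% after IL-4). Inside Foxn3 the sum was 57.0 in control and 714.0 after IL-4 at chr12:99514711-99515050, which is 11.6-fold after centring (log2 3.54, rounding range 3.39 to 3.70), and both sums were from members. Downstream of Bach1, which encodes a transcriptional repressor of heme and oxidative stress genes, the sums were 47.6 and 532.7 (chr16:87735182-87738739, 3.38, 2.74 to 4.05), again from members alone. Another 2 increases set a control sum made up of repeat transcripts against IL-4 sums that included members. Downstream of Zfp217, a zinc finger gene, the locus sums were 19.9 and 264.3 (chr2:170105695-170107249, 3.62), and members made up 0 and 211.5 of them. At a second place inside Foxn3 (chr12:99536483-99538543, 3.44) they were 94.0 and 1100.9, with 0 and 539.2 from members.

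Of the 5 largest decreases at such loci, 3 rested mostly on control transcripts that were not members. The only one with members in both libraries was the gene-free locus at chr17:84117485-84119983, named for 4933433H22Rik, with sums of 496.4 in control and 75 after IL-4 (log2 -2.83, rounding range -3.39 to -2.35), where members alone had 305.6 and 75 (-2.13). At the locus opposite to a gene and 144 kb from the promoter of Zfpm1, a GATA cofactor gene, the sums were 233.7 and 28.8 (-3.13), of which members made up 21.2 and 0 and a CA repeat transcript the rest. Near Malsu1 and inside Gpnmb, a macrophage glycoprotein gene, they were 2255.1 and 324.8 (-2.90), with 141.0 and 0 from members. Downstream of Brf1, named for Nudt14, they were 161.1 and 24.5 (-2.82), with 0 and 24.5 from members. Near B020031M17Rik they were 231.4 and 35.4 (-2.82), with 231.4 and 0 from members.

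Among loci seen in 1 library, the largest sum after IL-4 alone was 1249.7, named for Ms4a4c and inside Ms4a4a, a membrane protein gene (chr19:11378687-11384201). Only 147.6 of it came from its 2 members, and the rest from transcripts annotated as repeats. Downstream of Xdh, the xanthine dehydrogenase gene, the sum was 508.8 with 137.7 from members, downstream of Lpxn 439.3 with 177.0, gene-free near Secisbp2l 437.2 with 114.6 (chr2:125791718-125793097), and downstream of Hnrnpll 349.8 with 276.0. In control alone the largest lay downstream of Arhgap25 (288.5, of which 94.5 from members). It was followed by loci downstream of Ptpa (276.5, all from members) and gene-free near Wnt4 (210.0, all from its 1 member, chr4:137303657-137304181). After these came loci inside Lncpint (200.4, 106.4) and downstream of Fyb (192.8, 142.4). The Wnt4 locus lay in a single-strand group of members downstream of Cdc42, described below.

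The largest gene-free increase by ratio was near 2310008N11Rik on chromosome 8, where the sum was 26.4 in control and 289.1 after IL-4 at chr8:26685495-26685907 (log2 3.35, rounding range 3.02 to 3.71). Its control sum came from a transcript with a simple repeat annotation, so members were seen after IL-4 alone. The next 4 had sums from members in both libraries. Near Wnt4 on chromosome 4 they were 23.4 and 123.6 (2.29, rounding range 1.15 to 3.70), near B930018H19Rik 29.1 and 148.0 (2.24, 1.94 to 2.57), and at a second place near 2310008N11Rik (chr8:26687632-26688479) 273.0 and 1285.6 (2.13, 2.05 to 2.20). The main transcript of this last locus scored 2.1 in control and 3.4 after IL-4. Near Zfp217, at chr2:170153055-170153678, they were 28.2 and 124.8 (2.04). The Wnt4 locus here and the Wnt4 locus seen in control alone lay in the same group of 19 members within 10 kb of each other. All 19 were on the minus strand, in a run of 17.47 kb downstream of Cdc42. Over this whole group the sums were 624.7 in control and 695.2 after IL-4 (0.05).

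Below 4933433H22Rik, the gene-free decreases with member sums in both libraries were near Fth1, the ferritin heavy chain gene (491.7 and 154.2, -1.78), Azin1 (438.8 and 141.6, -1.74) and Cdca4 (122.0 and 43.4 for members, -1.60). Near Slc15a4, a lysosomal transporter gene, the locus sums were 129.8 and 23.5 (-2.57), with 0 and 23.5 from members, the rest being repeat transcripts. Near Maf (chr8:115670367-115671080) they were 101.5 and 28.8 (-1.93), with 36.5 and 0 from members. The control member there began 12503 bp past the 3' end of Maf on the same strand, beyond the 10 kb limit for downstream transcripts. These loci are named for the nearest promoter, and no link to that gene was measured.

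The transcripts occurred in groups. Where those within 10 kb of each other were joined, 1009 groups resulted, of which 516 held a single member, while 115 held at least 5 members and together 1149 members (43.96%). In 61 of the 115 every member was on the same strand, and 4 of the 115 came from 1 library alone. All members were gene-free in 10 groups. Of these, 5 used both strands and held 7 to 9 members: near Azin1 (5.297 kb, 9 members), Arid1a (1.684 kb, 9), Ccr1 (3.002 kb, 8), 1700019O17Rik (1.926 kb, 7) and Rbx1 (2.535 kb, 7). At Ccr1 the members' sum was 1273.7 in control and 601.8 after IL-4 (centred log2 -1.19), and at Azin1 1076.8 and 408.4 (-1.51). At Arid1a, Rbx1 and 1700019O17Rik the values were -0.17, -0.32 and 0.25. The group near Tmsb4x on chromosome X also used both strands but held fewer members (5.396 kb, 5 members, 0.37).

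Another 4 gene-free groups ran along a single strand. The one near B930018H19Rik (chr8:34669782-34688315, minus strand, 18.534 kb) had 1 member in control and 8 after IL-4, with sums of 29.1 and 445.4 (3.83). Its single control transcript scored 0.3 and lay at the upstream end, where the IL-4 transcript scored 1.0, and the other 7 IL-4 members scored 0.1 or 0.2. The group near Maf (15.64 kb, minus strand, sums of 248.6 and 203.4) had 4 and 3 members, that near Pum2 and Slc7a15 (9.794 kb, minus strand) 5 and 4, and that near Zeb2 (24.345 kb, plus strand) 3 and 3. The group at 2310008N11Rik (chr8:26660780-26691412, 30.633 kb, minus strand) was gene-free in 12 of 15 members and grew from 3 members in control to 12 after IL-4, with sums of 393.9 and 2156.7 (2.35). Its remaining members lay inside or downstream of the lincRNA gene Gm32098. The group at 4933433H22Rik (28.582 kb), gene-free in 10 of 14 members, had 12 members in control and 2 after IL-4, with sums of 878.7 and 163.2 (-2.54).

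Transcripts inside or downstream of a gene were then set beside the rest of that gene's nascent transcription, taken as the transcripts of other annotation classes on its strand. Over 107 genes with downstream members and both values, the centred log2 ratios of members and gene body had a Spearman rho of 0.44 and a Pearson r of 0.46, and over 85 genes with members inside them 0.47 and 0.40. These correlations are across genes of the same 2 libraries, which are not independent replicates. Where downstream members were at least 2-fold higher after IL-4 (27 genes), the gene body was above 0 in 22, with a median of 0.73. Where they were at least 2-fold lower (27 genes), it was below 0 in 18, with a median of -0.53. For 154 genes with downstream members after IL-4 alone the median of the gene body was 0.58, and for 100 genes with such members in control alone it was -0.45. Over all 7549 genes the quartiles were -0.68 and 0.66.

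**Figure D5:**
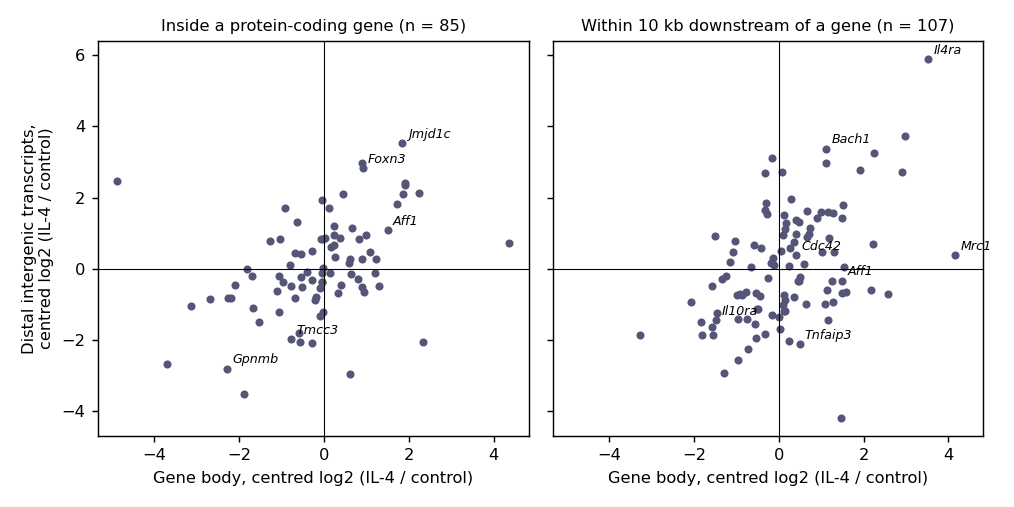
Centred log2 ratio of IL-4 over control for distal intergenic transcripts (y axis) against that of the gene body they lie in (left, 85 genes) or within 10 kb downstream of (right, 107 genes) (x axis), 1 point per gene. Il4ra stands highest in the right panel at 5.89 for the transcripts and 3.53 for the gene body.

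The clearest single case was Il4ra, the gene of the IL-4 receptor alpha chain. In control 1 transcript of score 0.1 lay downstream of it (chr7:125581048-125581465). After IL-4 there were 3, the first of which was 1613 bp long with a score of 1.6 (chr7:125580153-125581765) and began 679 bp past the gene's end, and the others scored 0.1 each. The sum was 41.8 in control and 2664.9 after IL-4 (5.89), while the gene body had 1006.1 and 12626.4 (3.53). In the file these transcripts carry the name of the neighbouring receptor gene Il21r. Downstream of Mrc1, the mannose receptor gene and a marker of alternative polarization, there were 1 and 3 members with sums of 375.0 and 530.2 (0.39), although the gene body had 2602.4 and 50619.9 (4.16). These carry the name of Slc39a12. Downstream of Ikzf1, an Ikaros family transcription factor gene, the sums were 47.0 and 331.1 (2.71), with a gene body ratio of 2.90, and downstream of Bach1 the gene body ratio was 1.11. These ratios are of score times length, and transcripts were longer in the IL-4 library. By the highest score of the gene's own transcripts, Il4ra had 0.9 in control and 2.2 after IL-4 and Ikzf1 had 1.4 and 2.0, but Bach1 had 0.6 and 0.4.

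By score times length, members were lower together with their gene at Il10ra, the interleukin-10 receptor gene, where the downstream transcript scored 0.8 in control and 0.2 after IL-4 (sums of 456.8 and 181.8, -1.44, gene body -1.48), and inside Gpnmb (304.6 and 47.0, -2.80, gene body -2.29). Downstream of Tnfaip3, which encodes an inhibitor of NF-kB signalling, the score dropped from 0.3 in the control to 0.1 (sums of 94.2 and 23.5, -2.11), while the gene body was at 0.49. By highest score Il10ra had 1.5 in control and 1.0 after IL-4, and Tnfaip3 had 0.4 and 0.3, so the higher gene body of Tnfaip3 did not hold for the score. Xdh, Hnrnpll and Lpxn, with downstream transcripts after IL-4 alone, had gene body ratios of 1.86, 3.15 and 1.91. Arhgap25, Ptpa and Fyb, with downstream transcripts in control alone, had -2.17, -0.63 and -2.19.

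The genes nearest to the transcripts were also counted in 4 lists drawn up for this tissue and treatment. Of 28 IL-4 response genes, 8 were the nearest gene of at least 1 member, 2 of them in control and 8 after IL-4, with 2 members in control and 15 after IL-4. Over all 11054 genes named by any transcript the share with a member was 8.32%. Of 26 inflammatory genes it was 3 (3 members in control and 1 after IL-4), of 22 macrophage transcription factors 9 (33 and 28 members) and of 18 macrophage surface receptors 5 (5 and 5 members). Where members were assigned by GENCODE to the gene they lay in or behind, the lists held 2 and 9 members for IL-4 response genes, 2 and 1 for inflammatory genes, 18 and 17 for transcription factors and 3 and 7 for receptors. All members numbered 1210 and 1404 by the nearest promoter, and 921 and 1101 were assigned by GENCODE. The 11054 genes are those that a called transcript names, while the list totals include genes that none names, such as Retnla and Il6. The lists were not tested against each other.

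Apart from the Il4ra transcript above and a control transcript of score 0.5 downstream of Mrc1, those near IL-4 response genes had scores of at most 0.4. Near Cish, a STAT-induced feedback inhibitor, a minus-strand (chr9:107312440-107313018) and a plus-strand transcript (chr9:107313097-107313374) lay 78 bp apart after IL-4, each with a score of 0.1, and control had none. Klf4 and Irf4, early transcription factors of alternative polarization, each had 1 transcript of score 0.1 after IL-4 and none in control, at 119.2 and 34.8 kb from the promoter. Tfec, a gene of the MiT transcription factor family, had 3 members after IL-4 and none in control. All were on its strand and past its 3' end. The member of score 0.4 lay 5664 bp past that end. Those of score 0.1 lay 10072 and 11447 bp past it, and so counted as gene-free by the 10 kb limit. The highest score of Tfec itself was 0.3 in control and 1.0 after IL-4. Batf3, an AP-1 family gene, had 1 in control, inside a protein-coding gene (0.2), and 4 after IL-4, of which 1 was inside that class (0.4), 1 opposite to a gene (0.1) and 2 gene-free (0.1 and 0.3). At a gene-free place 44.3 kb from Pparg, the gene of a nuclear receptor induced in alternative polarization, the order was the opposite, with a score of 0.3 for the control transcript and 0.1 for that of the IL-4 library. A score of 0.1 is the smallest step above 0 that the files can show.

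Among inflammatory genes, Tlr2, a Toll-like receptor gene, had 1 gene-free transcript in control (chr3:83863293-83863584, score 0.2) and none after IL-4, while the gene itself had a highest score of 2.1 in control and 0.2 after IL-4. The transcript named for Clec4e in control alone (score 0.1) lay downstream of Clec4d, a C-type lectin receptor gene whose body ratio was -3.80. Among transcription factors Maf had the most members, 15 in control and 10 after IL-4, with highest scores of 0.8 and 0.6. Zeb2, which encodes a zinc finger repressor of the myeloid lineage, had 5 and 6 members, all gene-free, with scores of 0.1 or 0.2 and at 80.9 to 164.6 kb from its promoter.

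Nearest genes were valued by the highest score of their own transcripts, centred on the median of all genes, which was -0.38 before centring, so that an unchanged score stands at 0.38. Near the loci that were at least 2-fold higher, the median over 97 genes was 0.38, the value of an unchanged score, and 13 genes were at least 2-fold higher and 2 lower. Near the loci within 2-fold, the median over 233 genes was -0.21, with 10 higher and 29 lower. Near the lower loci, the median over 81 genes was -0.34, with 2 higher and 19 lower. Over all 8573 genes with both values 7.98% were higher and 8.42% lower. Some member loci also held transcripts that were not intergenic, and 311 members lay in such loci. There a gene's own transcripts could enter both the locus sum and the gene value, so the locus call and the gene value are not independent. For gene-free loci only 4 genes near higher loci and 10 near lower loci had both values. For gene-free loci after IL-4 alone 9 of 40 genes were at least 2-fold higher and 1 lower, and for those in control alone 1 of 43 was higher and 11 were lower. None of these differences was tested.

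Motif letters could be searched only where a RefSeq promoter window overlapped a member, which was the case for 101 of 32851 windows of 300 bases and for 144 members (61 in control and 83 after IL-4), 24 of them gene-free. Both strands were searched. PU.1 letters (GAGGAAGT) were in 5.94% of the 101 windows (interval 2.75 to 12.4%) and 3.20% of all windows, AP-1 letters (TGANTCA) in 8.91% and 7.81%, RUNX letters (TGTGGTT) in 2.97% and 5.27%, and STAT6 letters (TTC, then 4 bases of any kind, then GAA) in 4.95% and 6.95%. C/EBP letters (TTGCNNAA) were in 2.97% (1.02 to 8.37%) against 10.8%. The 101 windows had a median of 61.0% G or C and 19 CG dinucleotides, against 52.7% and 7 for all windows. Among the 17 windows overlapped by a gene-free member, the only match was the C/EBP one printed above near Etv3. Windows at annotated starts do not stand for the distal intergenic transcripts as a whole, most of which overlap none.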

How the data were processed

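GRO-seq transcripts were analysed from 2 libraries, control and IL-4 for 1 hr, grouped by the treatment label. The authors aligned reads with BWA, called transcripts per library with HOMER's GRO-seq mode, removed blacklisted regions and annotated the calls (mm10). The submitters' notes list BWA 0.7.10, SAMtools 0.1.19 and HOMER 4.2. The deposited score of each transcript has 1 decimal, its scaling is not given in the sources used here, and depth is unknown. A score difference can therefore include a depth difference. The files' nearest promoter names were kept.

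Members were intergenic transcripts at least 10000 bp from a TSS with no repeat named, which left out 876 control and 856 IL-4 transcripts. Classes used GENCODE M21 (55450 genes, GRCm38) and were exclusive, in the order of the report. Counterparts needed 1 bp of same-strand overlap. Locus log2 ratios were centred on the median of all loci (0.11), and the rounding range adds or removes 0.05 per score. A member locus took the first class among its members. Named loci held intergenic transcripts alone: the 5 largest increases and decreases with a sum at or above the median, the 5 largest sums in each library alone, the 5 highest scores, the 3 strongest pairs and the 3 largest groups. One of these loci is not reported here. The gene-free loci were ranked likewise, and other genes were named for their lists or after their values were seen. Members and lists were chosen with earlier results of these data known. Intervals cover the counting of transcripts only. Scripts used Python 3.11.15, pandas 2.3.3 and SciPy 1.17.1 and were tested on simulated data. Promoter sequences came from RefSeq (GRCm38.p6).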

Additional observations from a re-analysis of the deposited data

How the results depend on the processing

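With 1 library per condition and unknown depth, no setting separates treatment from library. No paired analysis was possible because each condition has 1 library, and for the same reason no library was left out. Motif searches in genome windows and the eRNA assay regions were not run, since no genome was used. Of 96 alternatives 34 stayed within the counting interval or within 1.5 times the count and 62 moved. The order of paired shares turned in several. At a score of at least 0.3, control members lacked a counterpart more often than IL-4 members, loci in control alone outnumbered those in IL-4 alone, and 20.6% of loci were higher against 22.02% lower. Lower loci also outnumbered higher ones for intergenic transcripts alone (18.1% against 19.2%), for gene-free members (14.6% against 17.9%) and when centred on member loci (19.9% against 20.3%). Values are given control first, then IL-4.

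The share of transcripts that were members was 1.65% and 1.58% at 25 kb from a TSS, 0.626% and 0.641% at 50 kb, 2.24% and 2.02% at a score of at least 0.3, 4.84% and 4.40% with repeats, and 2.24% and 2.27% with equal numbers of transcripts. The share without a counterpart was 55.2% and 63.2% at 50 kb, 29.6% and 20.9% at a score of at least 0.3, 33.8% in control at 300 bp or longer, 52.5% and 71.9% where an overlap of 50% was needed, 40.5% and 46.9% with gaps of 500 bp bridged, 55.2% and 61.8% where the counterpart had to be a member, and 54.1% and 53.1% for gene-free members. The share in opposite-strand pairs was 5.88% and 4.55% at a score of at least 0.3, 3.80% and 5.70% within 200 bp, 10.99% and 10.97% within 1000 bp, 5.95% and 6.41% for diverging pairs alone, and 15.0% and 13.3% for gene-free members. Over all called transcripts, shares without a counterpart were counted for the 1 bp same-strand rule alone, and pairs were not counted. Downstream members were 21.7% and 26.7% and gene-free members 24.0% and 21.1% with 5000 bp counted as downstream, and 40.8% and 43.2%, and 7.60% and 7.98%, with 50000 bp.

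Loci at least 2-fold higher were 24.5% at 25 kb, 26.2% at 50 kb (14.2% lower), 14.7% by the highest score (12.4% lower), 16.0% by the sum of scores (15.0% lower), 18.1% for loci of intergenic transcripts alone and 14.6% for loci with a gene-free member. At 3-fold they were 11.4% higher and 7.70% lower. Without centring they were 24.1% higher and 16.9% lower. The share over all loci was not computed under these or the following settings, so none of them has a background here. Loci in control alone and IL-4 alone were 15.4% and 7.46% at a score of at least 0.3, 27.4% and 35.7% with joining at 200 bp, and 19.1% and 17.7% at 5000 bp. Those in control alone were 27.6% for intergenic transcripts alone and 29.2% for loci with a gene-free member. With members alone counted, 31.7% were in control alone and 36.3% after IL-4 alone. These last alternatives, and others listed for gene-free members, were chosen after seeing the data.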
